A study of Homo sapiens with 6 samples.

Results

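The interferon-stimulated genes examined here are 50 human genes, the classical targets of type I interferon together with the receptor chains, kinases and transcription factors that act on them. They were listed by gene symbol, with earlier results of these data known, by a rule that sets no threshold on a measured value. All 50 had a row among the 60668 genes of the deposited table. They were measured by strand-specific RNA-seq in MiaPaCa-2, an established human pancreatic ductal adenocarcinoma cell line. The cells had been kept for 48 h in low glucose (2.5 mM, 3 libraries) or in control medium (25 mM, 3 libraries), and the series was designed to ask how these cells respond to glucose withdrawal. All libraries come from this 1 line, and the labels name no drug, interferon or gene edit in either condition. The treatment field reads 2.5 mM for the controls too, but their titles, their treatment tag and the design text make them controls, at 25 mM.

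Type I interferons bind a receptor made of IFNAR1 and IFNAR2, and the kinases JAK1 and TYK2, which sit on these chains, then activate STAT proteins. STAT2 and IRF9 are parts of ISGF3, the complex that binds the interferon-stimulated response element in promoters and switches on genes whose products block viruses. Many tumor cell lines express some of these genes without added interferon, and several of them can also be driven by IRF1, IRF3 or other stress signals without it.

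The response element has a core that can be written as TTTC, then NN, then TTTC. In the RefSeq promoter table (GRCh38.p14, 250 bases before to 50 bases after each start) 38 of the 50 members had an entry, and this core was found on either strand in the promoters of 23 of them (60.5%). Over all 27305 genes of that table the share was 4.38% (3.57% of the 35116 promoter entries). A match is a description of the letters and does not show that a factor was bound. The windows below lie before the start of the 6 members that both had the core and passed the test described further on, so that they can be read beside their values. Each is given 5′ to 3′ on the strand of the gene, with the matching bases in capitals. Runs of GAAA are the same core read from the other strand.

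ISG15 (chr1:1013372-1013411, plus strand): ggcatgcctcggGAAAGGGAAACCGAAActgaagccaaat
IFI6 (chr1:27672264-27672319, minus strand): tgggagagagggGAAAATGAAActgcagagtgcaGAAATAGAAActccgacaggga
IFIT1 (chr10:89392495-89392541, plus strand): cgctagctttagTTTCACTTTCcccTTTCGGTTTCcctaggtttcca
IFIT5 (chr10:89414511-89414567, plus strand): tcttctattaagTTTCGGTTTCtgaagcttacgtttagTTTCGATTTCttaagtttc
IFITM1 (chr11:313988-314021, plus strand): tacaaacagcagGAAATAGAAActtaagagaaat
BST2 (chr19:17405733-17405772, minus strand): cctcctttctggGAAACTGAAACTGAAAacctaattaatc

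ISG15 and BST2 each carry 2 overlapping copies, and IFI6, IFIT1 and IFIT5 each carry 2 separate copies in the window shown, while IFITM1 has 1. IFI6 has a further window with 1 copy, at chr1:27672327-27672360. The IFITM1 copy begins 40 bases before the start and the first IFIT5 copy 45 bases before it, and those of ISG15 and BST2 begin 113 and 130 bases before it.

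The values are normalized counts, that is, reads per gene that the authors divided by 1 size factor per library. The control libraries are called A, B and C and the low glucose libraries D, E and F. These letters are names only, and D and E are low glucose replicates 1 and 2. A control library held 9741183 to 10190154 reads and a low glucose library 10595408 to 13733477. The members together took 0.0869% to 0.0954% of a control library and 0.0956% to 0.0969% of a low glucose library. In normalized counts their sums overlapped, with 9807 to 10402 in a control library and 9958 to 10109 in a low glucose library. Replicates spread beyond counting noise, for which chi-square divided by the number of genes would be about 1. It was 4.35 to 17.4 between control libraries and 1.86 to 2.76 between low glucose libraries. KRT8, KRT18, KRT19 and VIM, markers of this carcinoma line, were among the abundant transcripts, whereas the epithelial markers EPCAM and CDH1 had at most 1 and 3 reads in any library. KRT8, KRT18 and KRT19 were lower in low glucose (log2 differences -1.01, -0.74 and -0.83, limma adjusted p under 0.05). VIM was higher (0.42, limma adjusted p = 0.00819, up to 0.0841 with 1 library left out). Of 15 markers of leukocytes, plasmacytoid dendritic cells, fibroblasts, endothelium and acinar cells, 9 had no read in any library. Summed, the 15 gave 31 to 54 reads in a control library and 21 to 44 in a low glucose library. CD14 was the most abundant of them and was lower in low glucose (log2 difference -1.19, limma adjusted p = 0.0196, up to 0.0974 with 1 library left out).

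Low glucose did not move the interferon-stimulated genes in 1 direction. Of the 50 members, 46 had a mean normalized count of at least 1 and were tested, and 8 were higher and 8 lower in low glucose at an adjusted p under 0.05 (limma, log2(normalized count + 1), all 21101 genes tested). Over all genes tested, 14.7% were higher and 16.2% lower, 30.9% in all, and of the tested members 17.4% were higher and 17.4% lower, which is near that background. The median log2 difference of the tested members was 0.04, beside 0.05 for all genes tested. With library size in place of the deposited scaling the split of the members was 11 higher and 5 lower, as the split of all genes went from 3111 and 3417 to 3930 and 2645. In TPM the members split into 3 higher and 8 lower, and all genes into 2038 and 3355.

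**Figure D1:**
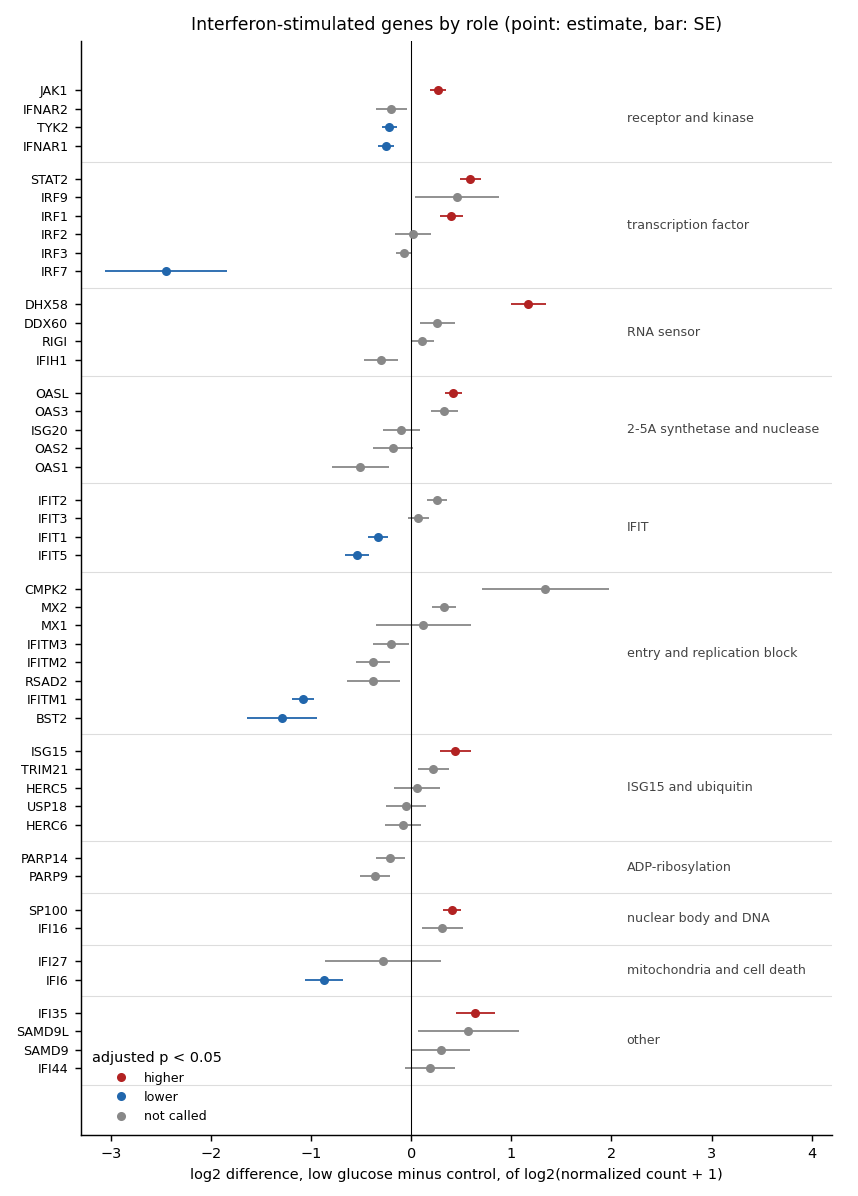
The log2 difference (low glucose minus control) of each of the 46 tested members, with its standard error, is plotted by role. The 8 members called higher (red) and the 8 called lower (blue) fall in the same role for the receptor and kinases and for the transcription factors, and in the other roles calls went in 1 direction or there were none. The other 30 members (gray) were not called.

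The values of the low glucose and control libraries did not overlap for 25 of the tested members, 15 higher and 10 lower. Among all genes tested 22.1% lay wholly higher and 21.8% wholly lower. The 16 called members were DHX58, IFI35, STAT2, ISG15, OASL, SP100, IRF1 and JAK1, which rose, and TYK2, IFNAR1, IFIT1, IFIT5, IFI6, IFITM1, BST2 and IRF7, which fell. Of these, DHX58, STAT2, OASL, IFITM1, IFI6 and IFIT5 had an adjusted p under 0.05 in all 18 other fits, those with 1 library left out included, and without a criterion on the size of the change. Calls of the other 10 were lost in at least 1 of these fits.

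**Figure D2:**
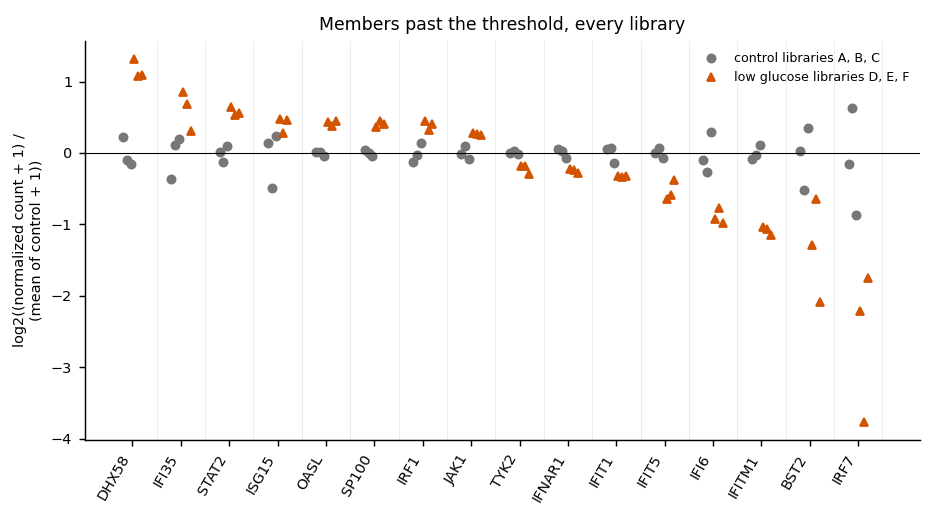
For each of the 16 called members, the normalized count of every library is plotted as log2((count + 1)/(mean of control + 1)). Circles are control libraries A, B and C and triangles low glucose libraries D, E and F. Triangles and circles do not overlap for any of the 16, and the differences run from 1.17 (DHX58) to -2.45 (IRF7, with few reads).

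The genes that carry the interferon signal into the cell were expressed in both conditions and changed by little. The kinase JAK1 had normalized counts of 912.5, 987.5 and 870.9 in control and 1124.5, 1108.4 and 1104.0 in low glucose. All low glucose libraries lay above all control libraries, and JAK1 rose by 0.27 on the log2 scale (limma adjusted p = 0.0166, standard error 0.0780), a ratio of 1.20. Over the alternatives with all libraries the difference ran from 0.20 to 0.43. RAVER2, on the other strand, shares 10 bases of exon with JAK1 and had 406 to 666 reads. TYK2, the other kinase of the receptor, went the other way. Its counts were 1303.8, 1331.9 and 1290.3 in control and 1151.4, 1147.9 and 1070.6 in low glucose, a log2 difference of -0.22 (standard error 0.0740, limma adjusted p = 0.0344). The receptor chain IFNAR1 fell from 888.0 ± 40.9 (SD, n = 3) to 747.5 ± 17.2 (SD, n = 3), with a log2 difference of -0.25 (limma adjusted p = 0.0261). The antisense lncRNA ENSG00000289238 shares 392 bases of exon with IFNAR1 and was not analysed here. IFNAR2, the other chain, had 98.5 ± 10.3 (SD, n = 3) in control and 85.5 ± 7.41 (SD, n = 3) in low glucose and was not called (limma adjusted p = 0.363). The antisense lncRNA IL10RB-DT shares 1803 bases of exon with IFNAR2 (13.0% of its exons). IL10RB-DT had 77 to 112 reads, beside 78 to 120 for IFNAR2, so the value of IFNAR2 is uncertain to that extent.

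These calls did not hold in every fit with 1 library left out. Leaving out control library A or any of the 3 low glucose libraries ended each of the calls of JAK1 (limma adjusted p up to 0.0764), TYK2 (up to 0.145) and IFNAR1 (up to 0.103). The log2 differences changed little, from 0.23 to 0.32 for JAK1, -0.24 to -0.19 for TYK2 and -0.29 to -0.22 for IFNAR1. Those fits called 4298 to 5135 genes in all, against 6528 with all libraries. Under quantile normalization the log2 difference was -0.05 for TYK2 and -0.12 for IFNAR1, and neither was called. With library size scaling they were at -0.14 and -0.17, again without a call. JAK1 was not called in TPM (limma adjusted p = 0.0919) or without a variance trend (0.0909). Without that trend TYK2 and IFNAR1 were not called either.

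Among the transcription factors, STAT2 rose. Its normalized counts were 208.5, 188.4 and 220.4 in control and 323.2, 299.3 and 304.6 in low glucose, well apart. The log2 difference was 0.59 (standard error 0.105, limma adjusted p = 0.000701). With 1 library left out it stayed between 0.52 and 0.64. IRF9, the DNA-binding partner of STAT2 in ISGF3, had 7, 18 and 10 reads in control against 21, 24 and 13 in low glucose, which overlapped (limma adjusted p = 0.447). Its reads may be shared with a gene on the same strand (ENSG00000259529) that covers 23.9% of its exons and had 13 to 23 reads.

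IRF1, a factor that binds the same kind of element and is induced by interferon gamma, rose from 161.4, 173.9 and 195.8 to 241.4, 222.3 and 234.1. Its log2 difference was 0.40 (standard error 0.115, limma adjusted p = 0.0171), and the call was lost without control library A (0.0755), low glucose library D (0.0829) or F (0.0674). With all libraries kept the call of IRF1 was lost in TPM (0.158) and without a variance trend (0.0567). The antisense gene IRF1-AS1 shares 2805 bases of exon with IRF1 with 38 to 47 reads in a control library and 51 to 79 in a low glucose library, and the strand setting of the counting is not given in the sources used here. IRF3, the factor activated by the viral sensors, was the most abundant of the 6 per length and lay at 861.0 ± 24.6 (SD, n = 3) in control and 818.6 ± 53.1 (SD, n = 3) in low glucose (limma adjusted p = 0.532). BCL2L12, on the other strand, shares 734 bases of exon with IRF3 and had 631 to 1059 reads. IRF2, which can repress targets of IRF1, lay at 117.9 and 117.8 on average. IRF7, which amplifies the response and is itself an interferon target, had 10, 18 and 6 reads in control and 2, 0 and 4 in low glucose. It was called lower (limma adjusted p = 0.00703), but its fitted change of -2.45 rests on these few reads and went from -3.73 to -1.01 over the alternatives that kept all libraries. The call was lost without a variance trend (0.0534), and IRF7 was not tested by edgeR or with at least 10 reads required in every library.

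DHX58 had the largest change among the members that rose. It encodes LGP2, a helicase that binds viral RNA and tunes the sensors RIG-I and MDA5. Its normalized counts were 60.5, 47.9 and 46.0 in control and 129.9, 109.7 and 110.6 in low glucose, from 43 to 54 and from 111 to 146 reads per library. The ratio was 2.27 and the log2 difference 1.17 (standard error 0.173, limma adjusted p = 0.000143). The sensors themselves were not called. RIGI, which encodes RIG-I, had 174.8 ± 2.48 (SD, n = 3) in control and 189.4 ± 17.4 (SD, n = 3) in low glucose. Its low glucose libraries all lay above its control libraries, with a log2 difference of 0.11. IFIH1, which encodes MDA5, had 118.8 ± 11.6 (SD, n = 3) and 97.6 ± 20.8 (SD, n = 3), and its libraries overlapped. The limma adjusted p-values were 0.514 and 0.20. A gene on the same strand (ENSG00000288684) covers 43.2% of the exons of RIGI and was not analysed here. DDX60, a helicase linked to RIG-I signaling, had a log2 difference of 0.26 with overlapping libraries and was not called (limma adjusted p = 0.290).

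Of the oligoadenylate synthetases, which sense viral RNA and activate RNase L, only the family member OASL was called. OASL lacks synthetase activity and acts on RIG-I instead. It had 356.5, 355.6 and 342.4 in control and 477.1, 458.4 and 480.4 in low glucose, with little spread in either condition. Its log2 difference was 0.42 (standard error 0.0868, limma adjusted p = 0.00188), a ratio of 1.34. OAS3 had a log2 difference of 0.33 with no overlap between the conditions (limma adjusted p = 0.0841), and passed when the reads were scaled by library size (0.0358) or thinned to the smallest library (0.0358). OAS1 (-0.51) and OAS2 (-0.18) had negative estimates with 22 to 36 and 42 to 63 reads per library and were not called. The exonuclease ISG20 was at -0.10 and was not called either. Whether OASL differed from its relatives in response was not tested.

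The IFIT genes, whose products bind foreign RNA and hold back its translation, lie side by side on chromosome 10 of hg38 and did not move together. IFIT5 (89414568 to 89421605) had 232.1, 243.0 and 220.4 in control and 148.1, 153.1 and 178.1 in low glucose. The groups did not overlap, and IFIT5 fell by 0.54 (log2, standard error 0.117, limma adjusted p = 0.00294). IFIT1 (89392546 to 89406487) had 353.1, 355.6 and 307.1 in control against 270.3, 267.7 and 269.7 in low glucose. Its log2 difference was -0.33 (standard error 0.0995, limma adjusted p = 0.0219). The call did not hold without control library A (0.0858), without any 1 of the low glucose libraries (up to 0.0793), or when reads were scaled by library size (0.0705) or thinned (0.103). It was also lost without a variance trend (0.0700). IFIT2 had 303.8, 290.9 and 306.0 in control and 340.5, 340.8 and 403.9 in low glucose, with no overlap and a log2 difference of 0.26 (limma adjusted p = 0.0609). It was called with edgeR on the recovered reads (0.0299) and under 4 further alternatives, always higher. A lncRNA on the same strand, ENSG00000232110, shares 524 bases of exon with IFIT2. It had 228 to 385 reads in a control library and 578 to 778 in a low glucose library, so the value of IFIT2 is uncertain to that extent. IFIT3, at 420.4, 487.1 and 377.7 and then 421.3, 449.5 and 476.6, overlapped between the conditions, with a log2 difference of 0.07 (limma adjusted p = 0.639).

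IFITM1 had the smallest adjusted p of the members. The IFITM proteins sit in membranes and keep viruses from entering the cytosol. IFITM1 (chromosome 11 of hg38, 310041 to 315272, plus strand) had normalized counts of 302.7, 316.5 and 347.7 in control and 156.8, 154.1 and 144.7 in low glucose. The ratio was 0.471 and the log2 difference -1.08 (standard error 0.108, limma adjusted p = 5.12e-06), and it lay between -1.12 and -0.94 over the alternatives, those without 1 library included. The antisense lncRNA ENSG00000254910 shares 176 bases of exon with it and had 4 to 15 reads. A protein-coding gene on the same strand, ENSG00000288681, shares 351 bases of exon with IFITM1 (21.1% of its exons) and was not analysed here. The adjacent IFITM2 and IFITM3 were not called. IFITM2 had 349.8, 247.4 and 472.9 in control and 267.4, 279.6 and 248.5 in low glucose, and IFITM3 had 750.0, 500.5 and 1035.7 in control and 635.8, 646.0 and 624.4 in low glucose. In both, control library B lay low and control library C high. Without library B each was called lower, IFITM2 at -0.62 (limma adjusted p = 0.000109) and IFITM3 at -0.47 (0.000346). Without library C neither was called, with IFITM2 at -0.15 (0.419) and IFITM3 at 0.05 (0.792). The 3 genes are close in sequence, and how reads that match more than 1 of them were counted is not given in the sources used here.

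BST2, or tetherin, holds budding virus at the cell surface. It had 44, 30 and 58 reads in control and 20, 31 and 14 in low glucose, in normalized counts 49.3, 33.4 and 62.1 against 19.2, 30.6 and 10.6. The log2 difference was -1.29 (standard error 0.351, limma adjusted p = 0.0117), with the highest low glucose value just under the lowest control value. The call was lost without control library A (0.0539) or low glucose library D (0.0503) or F (0.0744), and without a variance trend (0.0912). MX2, a dynamin-like GTPase that blocks nuclear entry of viruses, had a log2 difference of 0.33 with no overlap (limma adjusted p = 0.0531). It passed under 7 of the 18 alternatives, always higher. Its relative MX1, one of the standard markers of an interferon response, had 6 to 33 reads in any library and a log2 difference of 0.12 with overlapping libraries. RSAD2 (viperin) and CMPK2, neighbors on chromosome 2 that act on nucleotides, are also standard markers. RSAD2 had 19 to 29 reads in every library and a log2 difference of -0.38 (limma adjusted p = 0.307). CMPK2 had at most 1 read in control and 2, 3 and 7 in low glucose, passed the filter on low values only through the low glucose libraries, and was not called (limma adjusted p = 0.126).

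ISG15 is a ubiquitin-like protein that is attached to other proteins and also secreted, and it was the second most abundant member per length in low glucose. It had 330.7, 212.9 and 354.1 in control and 416.5, 362.5 and 412.2 in low glucose. The log2 difference was 0.44 (standard error 0.154), with the highest limma adjusted p of the 16 calls (0.0429). The call held when control library C was left out and was lost without A (0.0574), B (0.0931), D (0.170), E (0.0781) or F (0.168). It passed under 9 of the 18 alternatives. Fits with all libraries that lost it included TPM (0.211), a pseudocount of 0.1 (0.0642) and no variance trend (0.211). Without library B, whose value was the lowest, the difference was 0.21. A pseudogene on the other strand (ENSG00000231702) shares 36 bases of exon with ISG15 and had 1 to 6 reads. USP18, which removes ISG15 and also damps the receptor, was at -0.05, and the ISG15 ligase HERC5 at 0.06. HERC6 was at -0.08 and the antibody receptor TRIM21 at 0.22. None of the 4 was called (limma adjusted p of 0.319 to 0.882), and TRIM22 had at most 1 read in any library. UBA7 and UBE2L6, the enzymes that activate and carry ISG15, had log2 differences of 0.60 and 0.32 and were not called (limma adjusted p = 0.199 and 0.0926).

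**Figure D3:**
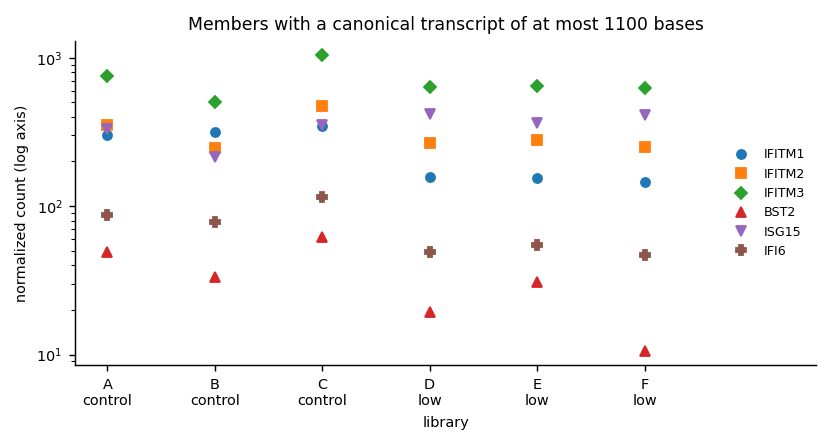
Normalized counts (log axis) of the 6 members with a canonical transcript of at most 1100 bases are plotted by library. Control library B lies below control library C for all 6, and the low glucose libraries D, E and F lie close together for each gene but BST2.

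The spread of control libraries B and C touched short transcripts in general. Over 733 protein-coding genes with a mean normalized count of at least 20 and a canonical transcript of at most 1100 bases, the median log2 difference of library C minus library B was 0.46, and over the 10504 longer ones it was -0.06. The 3 pairs of low glucose libraries had medians of -0.09 to -0.03 for the short genes. IFITM1, IFITM2, IFITM3, BST2, ISG15 and IFI6 are short in this sense, with C minus B between 0.14 and 1.05. Between the conditions the short genes had a median difference of 0.09 and the longer ones of -0.06. The part of transcript length in the calls of these 6 genes was not tested. Among the 4 called ones, IFITM1, IFI6 and BST2 were called both without library B and without library C, and ISG15 was called without C but not without B.

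Among the members with other roles, IFI6, a small mitochondrial protein that counters cell death, fell. It had 87.4, 78.0 and 115.6 in control and 49.1, 54.3 and 47.0 in low glucose, a ratio of 0.535 and a log2 difference of -0.87 (standard error 0.189, limma adjusted p = 0.00275). LINC02574, a lncRNA on the same strand, shares 216 bases of exon with IFI6 and had at most 3 reads. The IFI6 relative IFI27 had 1 to 4 reads in every library, and XAF1, which promotes cell death, had no read in control and at most 2 in low glucose. SP100, a scaffold of nuclear bodies that silence viral DNA, had 313.9, 303.2 and 295.3 in control and 390.5, 414.9 and 404.6 in low glucose. The log2 difference was 0.41 (standard error 0.0909, limma adjusted p = 0.00345), and the call held without any 1 of the libraries but not in TPM (0.0759). The antisense lncRNA ENSG00000235419 shares 117 bases of exon with it and had at most 1 read. IFI16, a sensor of DNA, had a log2 difference of 0.31 with no overlap between the conditions and was not called (limma adjusted p = 0.279). IFI35 rose from 52.7, 73.6 and 78.1 to 124.1, 109.7 and 84.9, with a log2 difference of 0.64 (standard error 0.195, limma adjusted p = 0.0222). Its call was lost without control library A (0.106), low glucose library D (0.135) or E (0.0945). With all libraries kept it was lost under quantile normalization (0.0620), in TPM (0.0734) and without a variance trend (0.0974). PARP9 (-0.36) and PARP14 (-0.21), ADP-ribosyltransferases that act on STAT signaling, were not called. PARP9 passed without control library B (0.0107) and with quantile normalization (0.0255). SAMD9, SAMD9L and IFI44 overlapped between the conditions. IFI44L had 1 read in 1 low glucose library, and EPSTI1 had none in any library.

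**Figure D4:**
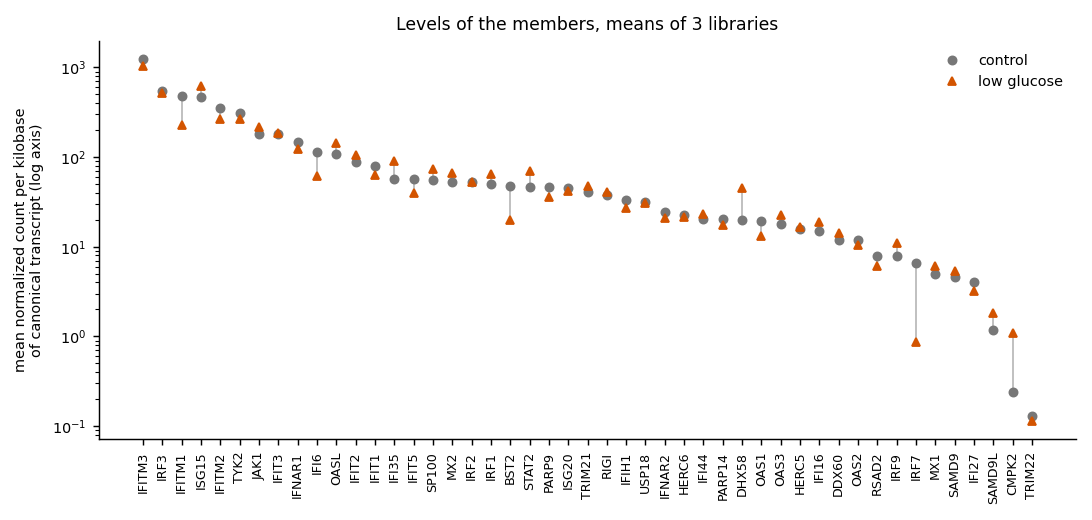
Mean normalized counts per kilobase of canonical transcript (log axis, means of 3 libraries) are plotted for the 47 members with a read in both conditions, ordered by control. IFITM3 was highest in both conditions, at 1247 and 1040, and the order of the other members was broadly kept, with IFITM1, BST2 and IRF7 below and DHX58 above their control levels.

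Per kilobase of canonical transcript, the levels of the members spanned more than 3 orders of magnitude. In control, IFITM3 (1247), IRF3 (540), IFITM1 (483), ISG15 (470) and IFITM2 (355) were highest. In low glucose, IFITM3 (1040) was followed by ISG15 (623), IRF3 (513), TYK2 (265) and IFITM2 (264), and IFITM1 was sixth with 227. In control the libraries of ISG15 overlapped those of IRF3, IFITM1 and IFITM2, and IFITM2 overlapped IFITM1. In low glucose, of the 6 genes named, TYK2 and IFITM2 overlapped. DHX58 moved from 19.9 to 45.0 and BST2 from 48.2 to 20.1. At the low end were genes often used to mark an interferon response, with MX1 at 5.03 and 6.14, RSAD2 at 7.98 and 6.06, and IFI27 at 4.07 and 3.20.

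The members with and without the core of the response element in their promoters can be set beside each other. Of the 23 with it, 21 were tested, and ISG15 was called higher while IFI6, IFIT1, IFIT5, IFITM1 and BST2 were called lower. Their median log2 difference was -0.20. Of the 15 with an entry and no core in this window, 14 were tested. JAK1, STAT2, IRF1, SP100 and IFI35 were called higher, IFNAR1 and TYK2 were called lower, and the median was 0.36. Outside the members, 449 tested genes had the core, of which 63 were higher (14.0%) and 90 lower, with a median of -0.01. Of the 11976 without it, 16.8% were higher and 20.9% lower, with a median of 0.01. The 5 lower of 21 tested members with the core (23.8%) lie near these shares, while the 1 higher (4.76%) lies below 14.0%. Of the 14 tested members without the core, 35.7% were higher, above 16.8%, and 14.3% were lower. These shares rest on few genes. The difference between the groups of members was seen after the values and was not tested. The 6 sequences printed above belong to genes that went in both directions. DHX58, OASL, IRF7 and 9 further members had no entry in the promoter table.

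**Figure D5:**
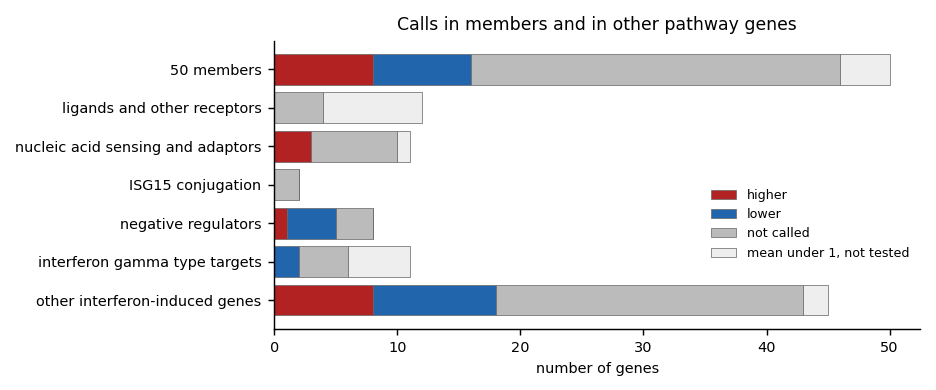
For the 50 members and for 6 lists of other genes of the pathway, the number of genes called higher, called lower, not called, and with a mean under 1 is plotted. Of the 8 negative regulators 4 were lower and 1 was higher, where 16.2% and 14.7% of all genes tested were. Most of the ligands had too few reads to be tested.

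Other genes of the pathway were taken from 6 lists by name. No read was found for IFNB1, IFNA1, IFNE, IFNK, IFNG, IFNL2 or IFNL3 in any library, and IFNL1 had at most 1. With 9741183 reads in the smallest library, a transcript can be present at a low level and give none. IFNGR1 and IFNGR2, the receptor of interferon gamma, were expressed and not called (limma adjusted p = 0.111 and 0.806). Over all 6 lists, 73 of 89 genes were tested, with a median log2 difference of -0.06. Of these, 12 were higher (16.4%) and 16 lower (21.9%), beside 14.7% and 16.2% of all genes tested.

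Of 11 genes of nucleic acid sensing, 10 were tested and 3 rose (30%, beside 14.7% of all genes tested). STING1, the adaptor of cytosolic DNA sensing, went from 47.1, 41.2 and 51.4 in control to 116.4, 109.7 and 147.0 in low glucose. Its log2 difference was 1.39 (standard error 0.177, limma adjusted p = 3.98e-05). TLR3, an endosomal sensor, had 5, 3 and 4 reads in control and 19, 15 and 19 in low glucose (log2 difference 1.65, limma adjusted p = 0.00558), and the difference ran from 0.45 to 1.84 over those alternatives that kept all libraries. IRF5, a factor that acts after Toll-like receptors, rose by 0.75 (limma adjusted p = 0.00680, up to 0.0654 over the alternatives). CGAS, which makes the ligand of STING1, and the adaptor MAVS were at 0.05 and -0.03 and were not called.

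Of the 8 negative regulators, 4 fell (50%) and 1 rose (12.5%), beside 16.2% and 14.7% of all genes tested. With 8 genes such shares are coarse. SOCS3, an inhibitor of JAK kinases, had 98.7, 102.5 and 102.7 in control and 53.9, 57.3 and 53.8 in low glucose, a log2 difference of -0.87 (limma adjusted p = 0.000781). PTPN1, a phosphatase of JAK2 and TYK2, fell by 0.62 and PIAS4, a SUMO ligase that binds STAT proteins, by 0.42. CBLB, a ubiquitin ligase, rose from 9, 14 and 11 reads in control to 57, 40 and 79 in low glucose, a log2 difference of 1.96 (limma adjusted p = 0.000130) that ran from 0.75 to 2.06 over the alternatives with all libraries. Of 11 targets shared with interferon gamma, 6 were tested. Of these, 2 fell (33.3%, beside 16.2% of all genes tested) and 0 rose, and such shares are again coarse. GBP2, a guanylate-binding GTPase, fell to a ratio of 0.495 (limma adjusted p = 0.00137). CIITA, the activator of MHC class II genes, fell by 0.33 (limma adjusted p = 0.0284, up to 0.124 with 1 library left out). WARS1, the most abundant of the 11, had a log2 difference of 0.16 and was not called (limma adjusted p = 0.181). CXCL10 and CXCL11 had at most 1 read in any library.

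The 45 other interferon-induced genes again went both ways, with a median of -0.09. Of 43 tested, 8 were higher (18.6%) and 10 lower (23.3%), beside 14.7% and 16.2% of all genes tested. LAMP3, a lysosomal membrane protein, rose from 4, 1 and 1 reads in control to 68, 63 and 83 in low glucose. Its log2 difference was 4.48 (standard error 0.413, limma adjusted p = 2.40e-06). With so few control reads this size depends on the processing, and it ran from 2.32 to 5.09 over the alternatives with all libraries. SHFL, an inhibitor of programmed ribosomal frameshifting, rose by 0.98 (limma adjusted p = 0.000391). TRIM5, which binds retroviral capsids, rose by 0.86 (0.000172) and PHF11 by 0.81 (0.00490). These 4 had the largest changes among the called genes of the list, and all 4 kept their calls without any 1 of the libraries.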

How the data were processed

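Per the labels and the study's methods, paired-end reads were trimmed with Trim Galore and mapped to hg38 with STAR 2.7.0e, and DESeq2 followed. How reads were counted, with which strand setting and annotation, is not given in the sources used here (RSEM is named without a role). The authors deposited a signal, reads per gene over 1 size factor per library. All values above 0 (100%) were whole multiples of a library's smallest value within a tolerance of 0.01, so whole reads were recovered, and median-of-ratios factors recomputed from them matched. Gencode v44 gave symbols, positions and canonical transcript lengths (99.4% of identifiers matched), and RefSeq the promoters.

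The labels name 2 columns (low glucose replicates 1 and 2). The other 4 were placed in the groups by the definition of the gene set, 3 columns a condition. The design text calls the replicates biological and independent.

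The values are not raw counts, so limma 3.58.1 (R 4.3.3) with a variance trend was fitted to log2(value + 1) where the mean was at least 1 (21101 genes). Tests were two-sided, with Benjamini-Hochberg adjustment over all of these and a threshold of 0.05. On this scale changes of low genes come out too small. Other scalings, filters, a pseudocount of 0.1, no variance trend, a log2 change of at least 1, edgeR 4.0.16, DESeq2 1.42.0, thinning and leaving out each library were tried. The fits were also run on simulated data with the same dispersion in all libraries. That simulation lacks the wider spread between control libraries, so it does not check the calls under that spread. Members and lists were chosen with earlier results of these data known. Called members are named with all values, and of each other list up to 4 called genes by size of change. Depth, 9741183 to 13733477 reads per library, limits the precision of genes with few reads.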

Additional observations from a re-analysis of the deposited data

How the results depend on the processing

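Of the values of single members over the alternatives, 752 kept their direction and their side of the threshold, 67 (14 genes) lost a call, 18 (6 genes) gained one, and 24 (10 genes) changed sign without passing the threshold before or after. The causes were not tested, except that fits without 1 library hold fewer samples and a criterion on size removes calls by construction. Against 6528 called genes and 16 called members (8 higher, 8 lower), fitting without a variance trend called 4090 genes and 7 members (4 higher, 3 lower), and requiring a log2 change of at least 1 called 1392 genes, 4 members (1 higher, 3 lower) and 4 of the other listed genes. In TPM 3 members were higher, as were 2038 of all genes. With library size or thinned reads 5 members were lower, as were 2645 and 2520 of all genes. With 1 library left out, 4298 to 7173 genes and 8 to 19 members were called, 4 to 8 higher and 4 to 11 lower, the fewest members without control library A or low glucose library D and the most without control library B.

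Sign changes with library size were HERC6 (0.00), IRF3 (0.01) and USP18 (0.03), in thinned reads HERC6 (0.01), in TPM IRF2 (-0.04), and with quantile normalization HERC5 (-0.13), IFI44 (-0.06), IRF2 (-0.08), IRF3 (0.06) and MX1 (-0.19). With 1 library left out the log2 differences ran from -0.25 to 0.71 for MX1, -0.15 to 0.09 for USP18, -0.09 to 0.25 for HERC5, -0.21 to 0.05 for HERC6, -0.17 to 0.18 for IRF2, -0.01 to 0.17 for IFIT3, -0.47 to 0.05 for IFITM3 and -0.45 to 0.07 for IFI27. No paired analysis was possible because the columns of the control libraries carry no replicate number. CMPK2 and IFI27, with under 10 reads in every library, and IRF7, with 0 to 18, are limited by depth.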
